A study of Mus musculus with 4 samples.

Results

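The genes described here are the transcriptional coactivator genes Yap1 and Wwtr1 (which encodes TAZ), the 4 genes of their DNA-binding partners Tead1, Tead2, Tead3 and Tead4, the TEAD cofactor gene Vgll4, and 3 genes of the Hippo pathway upstream of them, Lats1, Nf2 and Sav1. They are 10 of the 32286 features counted and were taken by name, with no measured value in the choice. All 10 were among the features. The tissue, labelled MB, was fresh mouse tumour, captured with the 10x Genomics V3 chemistry for 3' ends. There were 4 libraries, 1 for each genotype and sex. SG animals carried SMO-M2, a constitutively active form of the hedgehog transducer Smoothened, as fSMO-M2, together with hGFAPcre, in which the promoter of human GFAP drives the Cre recombinase. YSG animals carried fYap1, floxed Yap1, on top of both, and the design text calls them rescued, at end point. SMO-M2 and the Cre were thus shared by all groups. The sources used here do not give the number of animals in a library, their ages, the zygosity of fYap1 or the exons that Cre removes. Where 4 values follow each other unnamed, they are in the order SG males, YSG males, SG females, YSG females.

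YAP1 and TAZ are paralogs that do not bind DNA themselves. In the nucleus they bind TEAD proteins, which recognise the sequence GGAATG and its reverse complement CATTCC, and together they switch on genes of growth and of the cell surface. The Hippo pathway holds them back: NF2 and SAV1 help to activate a kinase cascade that ends in LATS1, which phosphorylates YAP1 and TAZ so that they stay in the cytoplasm or are degraded. VGLL4 competes with YAP1 and TAZ for TEAD proteins. In the developing cerebellum YAP1 is known from progenitors of granule neurons that respond to hedgehog signalling, and in the mature brain YAP1 and TAZ are known from astroglia and blood vessels rather than from neurons.

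The promoters of the 2 coactivator genes are shown because these genes had the largest ratios between the genotypes in both sexes. Each window is the 250 bases before the annotated start, from RefSeq on GRCm38.p6, written in the direction of transcription, with GGAATG in capitals. That of Yap1 is chr9:8004597-8004846 and that of Wwtr1 is chr3:57575911-57576160, both on the minus strand.
Yap1: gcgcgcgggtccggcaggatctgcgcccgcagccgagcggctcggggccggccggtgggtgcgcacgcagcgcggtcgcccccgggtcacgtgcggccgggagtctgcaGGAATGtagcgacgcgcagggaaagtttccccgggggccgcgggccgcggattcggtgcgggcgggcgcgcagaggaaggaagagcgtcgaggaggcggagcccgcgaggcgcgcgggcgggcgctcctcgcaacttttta
Wwtr1: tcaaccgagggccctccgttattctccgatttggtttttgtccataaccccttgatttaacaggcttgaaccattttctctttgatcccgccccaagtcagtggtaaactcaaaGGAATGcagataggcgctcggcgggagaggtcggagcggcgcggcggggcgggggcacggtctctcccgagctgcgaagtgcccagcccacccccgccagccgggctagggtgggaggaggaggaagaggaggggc
Each window held 1 GGAATG and 0 CATTCC, 141 bases before the start in Yap1 and 136 in Wwtr1. Over the RefSeq promoter windows of this length, 4153 of 32851 (12.6%) held the motif on either strand. RefSeq entries were matched for 8 of the 10 genes, and 7 of their 12 windows held the motif. For 5 of these genes (Yap1, Wwtr1, Tead3, Vgll4 and Sav1) at least 1 window held it. Windows of 1 gene can overlap, as does a further window of Wwtr1, chr3:57575877-57576126, with the one shown. A match is a description of the letters and not of TEAD binding.

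After the cell filter (at least 500 UMIs and 300 genes, with mitochondrial UMIs at 20% or below) the libraries kept 7193 to 8419 cells and 58308739 to 86810253 UMIs, with medians of 5872.5 to 7419.5 UMIs per cell. A UMI is a molecular tag that counts 1 captured transcript. Levels are in CPM, UMIs scaled to the sum of UMIs of the same cells, with exact Poisson 95% intervals, and folds have exact conditional binomial 95% intervals. These cover counting error only, since each group was 1 library. A difference within 1 sex has no replicate check. Genotype over both sexes was tested with edgeR's quasi-likelihood test on the 4 library sums, with sex as a block, and sex likewise with genotype as a block. Each of these fits, added after the data were seen, had 1 residual degree of freedom among libraries and took the spread of a gene mostly from that of all genes. Genotype and sex cannot be told apart from the animal or the capture run. UMIs come from the 3' end and their number does not scale with transcript length, so levels of different genes are compared as UMIs, although capture can differ between genes. Pairs of libraries shared 10 to 21 cell barcodes, at most 0.272% of the smaller library.

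Yap1, the gene targeted in YSG, had 266 UMIs in SG males, 10 in YSG males, 374 in SG females and 3 in YSG females. The levels were 3.64, 0.164, 4.31 and 0.0515 CPM in that order, so Yap1 was scarce in SG and nearly absent in YSG. It was 22.1-fold lower in YSG in males (11.9 to 46.7) and 83.7-fold lower in females (28.4 to 408). Over both sexes Yap1 fell by 5.18 on the log2 scale (SE 0.40, edgeR adjusted p = 8.06e-05), and without the SG female library, and with no block, the adjusted p was 0.264. The counts go with the genotype labels. They do not show the deletion itself, since the floxed exons may lie outside the stretch that 3' tags cover. Yap1 lies at chr9:7931999-8004596 on the minus strand in mm10.

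Of the 10 Yap1 UMIs in YSG males, 4 were in cycling cells, 3 in Aqp4-positive cells and 1 each in endothelial, postmitotic and ungated cells, and of the 3 in YSG females 2 were in endothelial cells and 1 in a postmitotic cell. The cell groups were set from marker UMIs: cycling and postmitotic cells of the tumour, Aqp4-positive cells (Aqp4 encodes the astroglial water channel), leukocytes, endothelial cells, and ungated cells that met none of these. Aqp4-positive cells held 0.465% of all UMIs of YSG males and endothelial cells held 0.214% of those of YSG females. In cycling cells Yap1 had 156, 4, 250 and 0 UMIs. It was 28.8-fold lower in YSG males (11.01 to 107). In YSG females the exact interval starts at 30.1-fold lower. With a floor of 3 UMIs in place of the 0 the value was 37.3-fold, which is not a lower bound. In Aqp4-positive cells Yap1 had 16 UMIs in SG males (12.5 CPM) and 3 in YSG males (10.6 CPM), a YSG over SG fold of 0.847 (0.158 to 2.96), and 17 in SG females (8.35 CPM) and 0 in YSG females. In endothelial cells it had 5, 1, 8 and 2 UMIs, or 44.2, 31.0, 27.0 and 16.05 CPM. The intervals of both small groups are wide and hold no difference as well as a large one.

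Wwtr1 had 1410 UMIs in SG males, 414 in YSG males, 2292 in SG females and 539 in YSG females, which was 19.3, 6.80, 26.4 and 9.24 CPM. The female library lay above the male one within each genotype. The YSG over SG fold was 0.353 for males (0.315 to 0.394) and 0.350 for females (0.318 to 0.385). A gene counted as measured if either library of a pair held it at 5 CPM or more, and was called beyond 2-fold when the log2 ratio of CPM + 1 passed 1 in size. By this rule 2.37% of 10180 measured genes were lower in YSG males and 2.45% of 10379 in YSG females, with 1.56% and 3.11% higher. Of the 7 of the 10 genes that were measured, Wwtr1 alone was called, lower in both sexes, with log2 ratios of −1.38 and −1.42. Only 1.13% and 1.15% of measured genes had lower ratios than Wwtr1. In the test over both sexes 8.15% of 16489 genes were called lower in YSG and 9.1% higher, and of the 10 genes Yap1, Wwtr1 and Tead2 were called, all lower. Wwtr1 fell by 1.52 (SE 0.14, edgeR adjusted p = 0.000235). With no block by sex its adjusted p was 0.0156, and without SG males or SG females as well it was 0.0584 and 0.316. Yap1, Tead3 and Tead4 were under 5 CPM in every library and were not counted. Wwtr1 lies at chr3:57455649-57575910 on the minus strand.

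**Figure D1:**
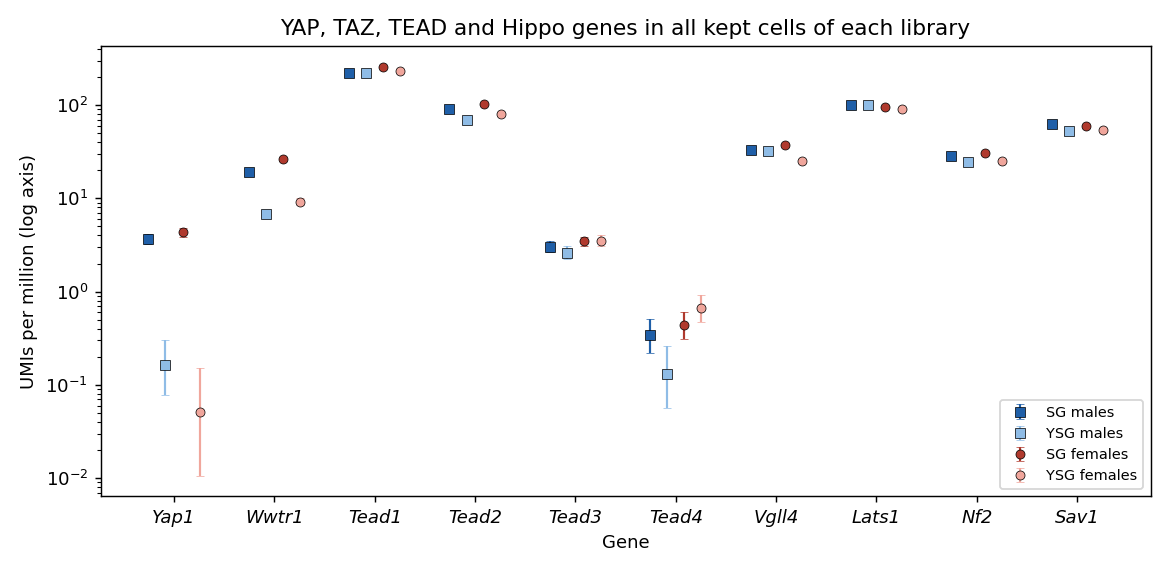
Level of each gene over all kept cells in CPM (log axis), 1 point per library, with exact Poisson 95% intervals; squares are males, circles females, dark SG and light YSG. Yap1 and Wwtr1 are lower in both YSG libraries, while Tead1 lies between 220 and 257 CPM in all 4.

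**Figure D2:**
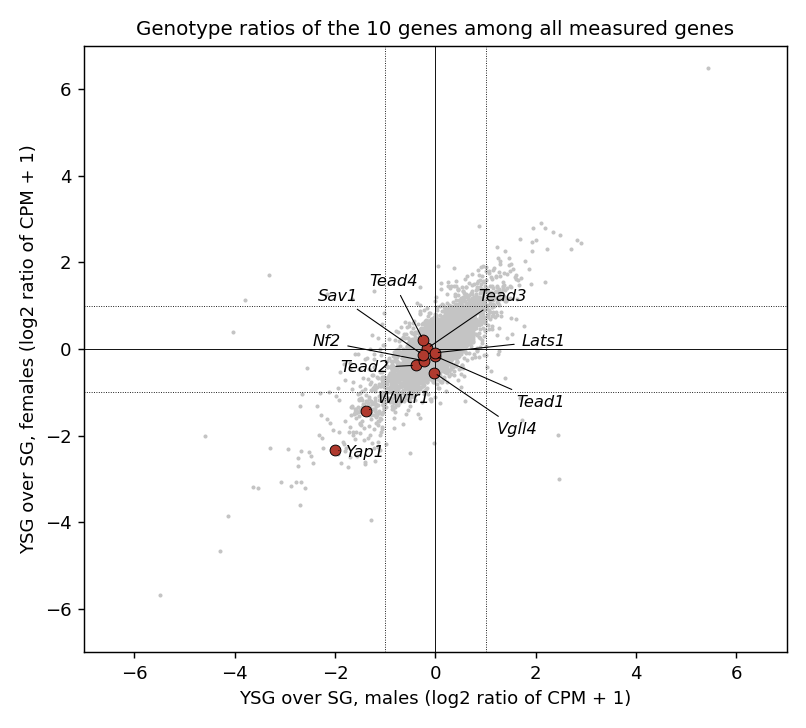
YSG over SG log2 ratio of CPM + 1 in males (x axis) and females (y axis); grey points are genes measured in both sexes, red points the 10 genes, and dotted lines mark 2-fold. Wwtr1 at −1.38 and −1.42 and Yap1 at −1.99 and −2.34 lie beyond 2-fold in both sexes and the other 8 do not.

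The lower Wwtr1 level in YSG was present within the cycling, postmitotic and ungated groups. In the small Aqp4-positive group the genotypes could not be told from no difference. The gates do not separate tumour cells from other cells of the tissue. In cycling cells Wwtr1 was at 22.1, 7.45, 28.9 and 9.95 CPM, with YSG over SG folds of 0.338 for males (0.291 to 0.391) and 0.345 for females (0.300 to 0.394). In postmitotic cells it was at 7.41, 2.96, 8.60 and 4.91 CPM, with folds of 0.399 (0.261 to 0.601) and 0.570 (0.422 to 0.770). With gates on thinned cells the postmitotic log2 ratios moved from −1.09 to −0.57 in males and from −0.70 to −1.78 in females, which turned the order of the sexes. In ungated cells it was at 16.7, 7.16, 24.6 and 10.97 CPM, with folds of 0.428 (0.345 to 0.528) and 0.446 (0.372 to 0.533). The share of genes called lower in YSG was 2.37% and 2.48% in cycling, 1.61% and 1.76% in postmitotic and 2.44% and 2.24% in ungated cells of males and females.

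In Aqp4-positive cells Wwtr1 was at 35.2, 31.8, 34.4 and 67.7 CPM, and the folds of 0.904 for males (0.388 to 1.87) and 1.97 for females (0.971 to 3.66) both had intervals that held 1. These cells numbered 99, 29, 102 and 13, and the 12 Wwtr1 UMIs of YSG females came from 3 cells. Endothelial cells had the highest Wwtr1 levels of any group in every library, 247, 279, 294 and 177 CPM, on 7, 4, 19 and 7 cells. Their folds were 1.13 for males (0.468 to 2.46) and 0.601 for females (0.358 to 0.968). Leukocytes had 4 Wwtr1 UMIs in YSG males and 0 in each of the other libraries.

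Endothelial cells held 1.99% to 4.08% of the Wwtr1 UMIs of a library and cycling cells 45.8% to 69.8%. With the Aqp4-positive, leukocyte, endothelial and mixed cells left out, the log2 ratios of all remaining cells were −1.38 in males and −1.43 in females. Cycling cells made up 37.6% of SG male, 33.2% of YSG male, 41.2% of SG female and 27.1% of YSG female cells, and postmitotic cells 20.6%, 24.9%, 20.4% and 35.8%. Both shares moved with the genotype, and Wwtr1 was higher in cycling than in postmitotic cells of each library. The cells left after that removal still held RNA of fibroblast and mural markers (Dcn, Col1a1, Pdgfrb and Rgs5). The summed level of these markers was 14.5, 2.67, 13.9 and 0.946 CPM in ungated cells. In cycling cells it was 3.71, 1.39, 1.61 and 0.685 CPM. In both of these groups it was lower in YSG in both sexes. In postmitotic cells it was lower in YSG males than in SG males, but higher in YSG females than in SG females. The summed level of 6 granule lineage markers was 1012 and 1016 CPM in the cycling cells of both SG libraries and 1368 and 1389 CPM in those of both YSG libraries, and the part of either list in the difference was not tested.

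**Figure D3:**
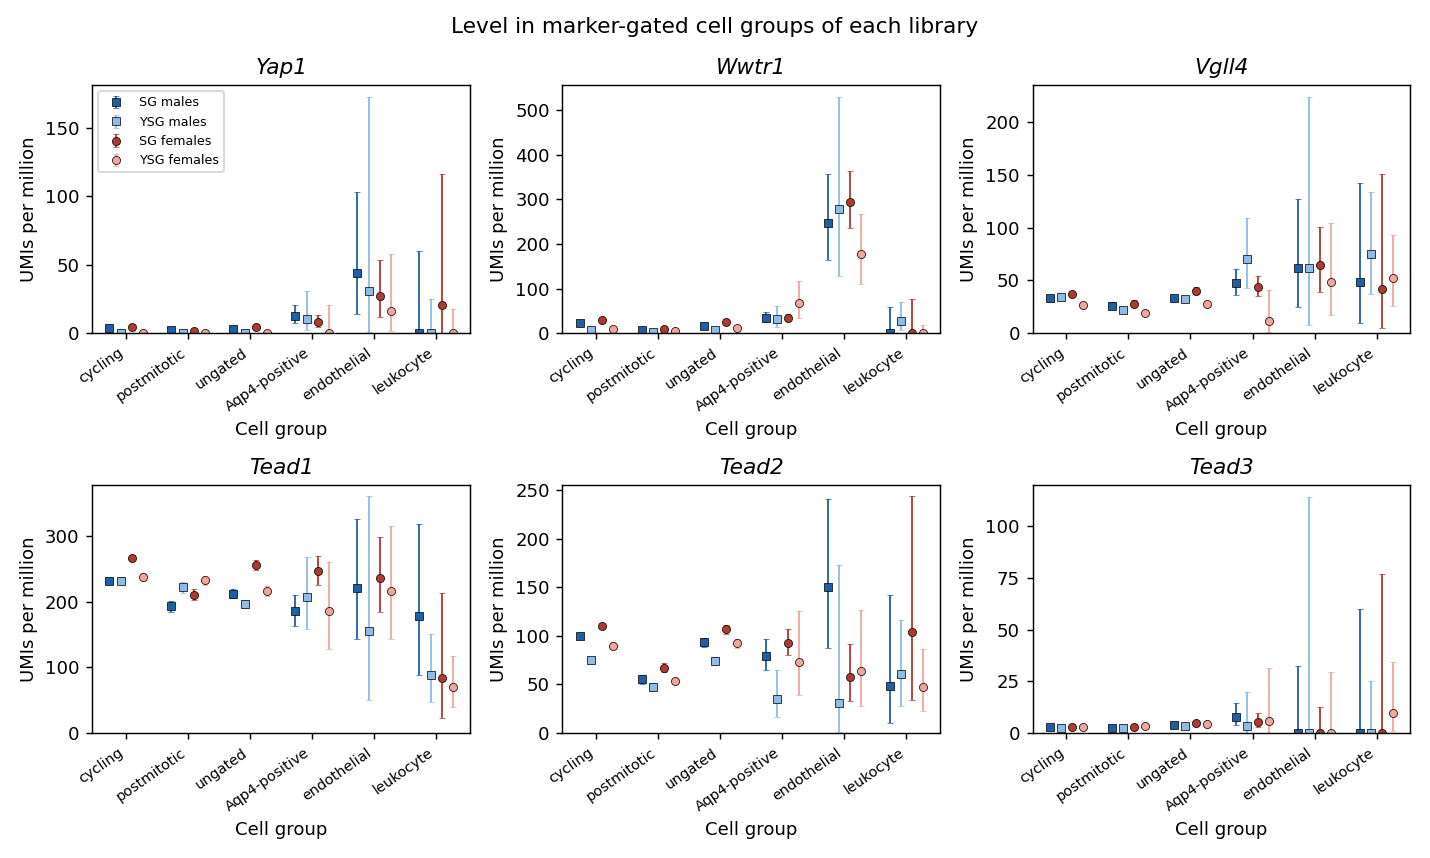
Level of Yap1, Wwtr1, Vgll4, Tead1, Tead2 and Tead3 in each cell group in CPM (linear axes), 1 point per library, with exact Poisson 95% intervals. Wwtr1 reaches 177 to 294 CPM in endothelial cells against 2.96 to 28.9 CPM in cycling and postmitotic cells, and the wide intervals mark groups of few cells.

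The TEAD genes kept 1 order in every library, with Tead1 highest, then Tead2, Tead3 and Tead4. Tead1, at chr7:112679318-112906807 on the plus strand, was at 221 CPM in SG males, 220 in YSG males, 257 in SG females and 230 in YSG females. Its fold was 0.995 for males (0.972 to 1.02) and 0.895 for females (0.876 to 0.915). The male libraries did not differ in Tead1 beyond counting error, and YSG females were slightly lower than SG females. The folds differed between cell groups. In cycling cells the fold was 0.999 for males (0.969 to 1.03) and 0.891 for females (0.864 to 0.918). In ungated cells it was 0.925 (0.884 to 0.968) and 0.846 (0.809 to 0.885). In postmitotic cells it was above 1, at 1.15 (1.09 to 1.22) and 1.10 (1.05 to 1.16).

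Tead2, at chr7:45215753-45233644 on the plus strand, was at 91.0, 69.3, 103 and 79.6 CPM. The YSG over SG folds were 0.762 for males (0.733 to 0.792) and 0.770 for females (0.743 to 0.797), short of 1.5-fold. Over both sexes Tead2 fell by 0.39 (SE 0.09, edgeR adjusted p = 0.0179), a call that was lost with no block by sex (adjusted p = 0.0796), and also when SG males, YSG males or SG females were left out of that fit (0.263, 0.0694 and 0.567). In cycling cells the folds were 0.756 and 0.811, and in postmitotic cells 0.861 and 0.795. The 3' end of Tead2 overlaps Cd37 on the other strand by 13 bases. Cd37 had 21 to 23 UMIs in each library.

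Tead3 and Tead4 were scarce. Tead3 (chr17:28331671-28350817, minus strand) was at 3.03, 2.61, 3.48 and 3.53 CPM, with folds of 0.860 (0.697 to 1.06) and 1.02 (0.847 to 1.22). In both SG libraries Tead3 was somewhat below Yap1. In males the counting intervals were 2.65 to 3.46 CPM against 3.21 to 4.10 CPM for Yap1. In females they were 3.10 to 3.89 CPM against 3.88 to 4.77 CPM. Both pairs overlap, which does not show equal levels. Tead4 (chr6:128224288-128300823, minus strand) had 25, 8, 38 and 39 UMIs, or 0.342, 0.131, 0.438 and 0.669 CPM. Its fold was 0.384 for males (0.150 to 0.879) and 1.53 for females (0.952 to 2.45), on counts too low for a firm value in either.

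Vgll4 (chr6:114860628-114969994, minus strand) had, of the 7 measured genes, the YSG over SG folds that lay furthest apart between the sexes. It was at 32.6 CPM in SG males, 32.0 in YSG males, 37.1 in SG females and 25.1 in YSG females. The YSG over SG fold was 0.981 for males (0.924 to 1.04) and 0.678 for females (0.637 to 0.721), the latter with a log2 ratio of −0.54. The female YSG library was the low one in the main groups as well: in cycling cells the levels were 33.2, 34.6, 37.5 and 27.1 CPM, and in postmitotic cells 26.3, 22.4, 27.95 and 19.1 CPM. The female folds were 0.721 (0.660 to 0.787) and 0.683 (0.584 to 0.799) there, against 1.04 (0.962 to 1.13) and 0.853 for males (0.719 to 1.01). With 1 library in each group, the difference between the sexes was not tested, and over both sexes Vgll4 did not pass (log2 difference −0.30, SE 0.15, edgeR adjusted p = 0.226). With no block and without YSG males it was −0.51 (edgeR adjusted p = 0.0207).

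The 3 upstream genes varied little. Lats1 (chr10:7681214-7716460, plus strand) was at 100, 99.1, 96.0 and 90.3 CPM, with YSG over SG folds of 0.991 (0.958 to 1.03) and 0.941 (0.909 to 0.974). Nf2 (chr11:4765845-4849536, minus strand), the gene of the membrane-linked scaffold Merlin, was at 28.4, 24.3, 30.4 and 25.1 CPM, with folds of 0.854 (0.798 to 0.913) and 0.824 (0.772 to 0.879). Sav1 (chr12:69965012-69987002, minus strand), the gene of the scaffold that binds the MST kinases, was at 62.5, 52.3, 59.1 and 53.9 CPM, with folds of 0.838 (0.801 to 0.877) and 0.912 (0.872 to 0.954). Nf2 and Sav1 were lower in YSG in both sexes by more than counting error and by less than 1.5-fold. Over both sexes neither passed, with edgeR adjusted p-values of 0.198 and 0.222. The 3' end of Sav1 overlaps Atl1 on the other strand by 1406 bases, and Atl1 went the other way, at 29.3, 41.2, 24.9 and 51.2 CPM. The sources used here do not say how the counting treated strand.

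Between the sexes, 0 of the 7 measured genes passed 2-fold in either genotype, where 0.159% of 10057 measured genes did in SG and 1.57% of 10223 in YSG. In the test over both genotypes 0.0425% of 16489 genes were called higher in males and 0.0243% lower, and 0 of the 10 genes were called. Wwtr1 was lower in males, with male over female folds of 0.730 (0.683 to 0.781) in SG and 0.736 (0.646 to 0.838) in YSG. In SG only 1.34% of measured genes had a lower male over female ratio than Wwtr1, and in YSG 11.1% had. Over both genotypes its log2 difference was −0.41 (SE 0.14, edgeR adjusted p = 0.432). Tead2 had folds of 0.880 (0.852 to 0.908) and 0.871 (0.835 to 0.908), and Tead1 had 0.860 (0.842 to 0.877) and 0.956 (0.933 to 0.979). Vgll4 had 0.880 (0.834 to 0.928) in SG and 1.27 (1.19 to 1.36) in YSG.

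The cell groups could be compared over the 4 libraries, each of which held all of them. UMIs were summed per library and group and tested with edgeR's quasi-likelihood test, with the library as a block and Benjamini-Hochberg adjustment over 13425 genes. The p-values measure the spread among these 4 libraries, which differ in genotype and sex, and standard errors (SE) were calculated back from the test statistic. Tead4 was too scarce to be tested. The groups carried the markers of their names, with 1 gene of each gate in these lists: the summed level of 6 leukocyte markers was 2738 to 7595 CPM in leukocytes and at most 7.06 CPM in any other group, that of 5 endothelial markers was 2421 to 3346 CPM in endothelial cells and at most 48.6 CPM elsewhere, and that of 7 astroglial markers was 1590 to 5431 CPM in Aqp4-positive cells and at most 416 CPM elsewhere. Granule lineage markers were also high in the Aqp4-positive cells, at 936 to 1196 CPM, with 0 of the 6 markers at 0. Cycling markers, which are the 8 genes of the cycling gate, were at 1136 to 2397 CPM there. They were at 2901 to 3202 CPM in cycling, 151 to 186 CPM in ungated and 39.4 to 54.8 CPM in postmitotic cells. The gates on the same genes set these last 3 ranges in part, since postmitotic cells could hold at most 1 such UMI. Endothelial cells held granule markers at 589 to 899 CPM and cycling markers at 341 to 1581 CPM, and leukocytes at 642 to 1150 and 779 to 2057 CPM. How far tumour cell RNA shapes the values of these 3 groups was not tested, and values from the Aqp4-positive cells with at most 1 UMI of Atoh1, Barhl1 and Neurod1 together (51, 16, 41 and 5 cells, chosen after seeing the data) are given beside them.

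Cycling cells had more Wwtr1, Tead2, Vgll4 and Sav1 than postmitotic cells. In this contrast 27.9% of all tested genes were higher in cycling cells and 29.9% lower, and of the 9 genes tested here 6 were higher and 0 lower, so a call alone says little about a gene. Wwtr1 rose by 1.54 on the log2 scale (SE 0.18, edgeR adjusted p = 1.63e-06), and its level was higher in the cycling cells of 4 of 4 libraries. Tead2 rose by 0.83 (SE 0.06, edgeR adjusted p = 1.07e-08), from 47.6 to 67.3 CPM in postmitotic to 75.2 to 111 CPM in cycling cells. Vgll4 rose by 0.56 (SE 0.09, edgeR adjusted p = 8.38e-05), and Sav1 by 0.27 (SE 0.06, edgeR adjusted p = 0.00111). These 4 calls held with each library left out in turn, but with no library block those of Vgll4 (adjusted p = 0.0585) and Sav1 (adjusted p = 0.123) were lost. Ungated cells, which were not in the test, lay nearer the cycling than the postmitotic level for these genes in each library. Their ranges were 7.16 to 24.6 CPM for Wwtr1 (7.45 to 28.9 in cycling cells) and 74.2 to 107 CPM for Tead2 (75.2 to 111). For Vgll4 they were 28.2 to 40.3 CPM (27.1 to 37.5) and for Sav1 53.3 to 61.5 CPM (53.7 to 65.4). The contrast thus shows a low level in postmitotic cells rather than a level particular to cycling cells.

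Yap1 was also called higher in cycling cells, by 1.18 (SE 0.39, edgeR adjusted p = 0.0159), but the call rested on single libraries. Its counts were 156 and 24 UMIs in cycling and postmitotic cells of SG males and 250 and 17 in those of SG females, against 4 and 1 in YSG males and 0 and 1 in YSG females. Without the SG male library the edgeR adjusted p was 0.0785, without the SG female library it was 0.339, by DESeq2 it was 0.347, and with no library block 0.402. Tead1 was 0.26 higher (SE 0.06, edgeR adjusted p = 0.00232), a small difference whose adjusted p was 0.0592 without the SG female library and 0.0558 with no library block. Tead1 levels ran from 232 to 267 CPM in cycling and from 193 to 233 CPM in postmitotic cells. Tead3, Lats1 and Nf2 had log2 differences of 0.09, 0.00 and 0.02, with edgeR adjusted p-values of 0.686, 0.953 and 0.854. Cycling cells were deeper, with median UMI counts of 9420 to 12942 against 5030 to 6065 in postmitotic cells, and with the gates set on cells thinned to 2000 UMIs the differences of Wwtr1, Tead2, Vgll4 and Sav1 were 1.85, 1.27, 0.84 and 0.42.

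Aqp4-positive cells had more Yap1, Wwtr1 and Vgll4 than postmitotic cells. In that contrast 21.1% of the tested genes were higher in Aqp4-positive cells and 14.7% lower, and of the 9 genes 5 were higher and 0 lower. Yap1 was 2.66 higher on the log2 scale (SE 0.53, edgeR adjusted p = 0.000907), Wwtr1 2.29 (SE 0.29, edgeR adjusted p = 9.88e-06) and Vgll4 0.89 (SE 0.16, edgeR adjusted p = 0.000409), and all 3 calls held with each library left out. With no library block that of Yap1 was lost (edgeR adjusted p = 0.0888), and so was that of Tead2 (0.0957), whose values follow. Their levels were higher in the Aqp4-positive cells of 3 of 4 libraries for Yap1, 4 of 4 for Wwtr1 and 3 of 4 for Vgll4. The exception in both was YSG females, with 13 such cells. Tead3 was 1.17 higher (SE 0.34, edgeR adjusted p = 0.0133), with an adjusted p of 0.227 without the SG male and 0.0590 without the SG female library. Tead2 was 0.47 higher (SE 0.11, edgeR adjusted p = 0.00259), with 0.0964 and 0.140 without the same libraries and a difference of 0.03 (edgeR adjusted p = 0.945) with gates on thinned cells. In the Aqp4-positive cells of few granule UMIs Tead2 was instead 0.62 lower than in postmitotic cells (edgeR adjusted p = 0.112) and Tead1, with a difference of 0.04 in all Aqp4-positive cells (edgeR adjusted p = 0.755), was 0.67 lower (edgeR adjusted p = 0.00353).

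Against cycling cells, Aqp4-positive cells had less Tead2 and Sav1. Here 16.4% of the tested genes were higher and 15.1% lower, and of the 9 genes 3 were higher and 2 lower. Tead2 fell by 0.36 (SE 0.10, edgeR adjusted p = 0.0118) and Sav1 fell by 0.42 (SE 0.11, edgeR adjusted p = 0.00791), and both calls held with each library left out but were lost with no library block (edgeR adjusted p = 0.274 and 0.0666). Yap1 was 1.48 higher (SE 0.46, edgeR adjusted p = 0.0209), Wwtr1 0.74 higher (SE 0.25, edgeR adjusted p = 0.0329) and Tead3 1.08 higher (SE 0.33, edgeR adjusted p = 0.0188). None of these 3 calls held without the SG male library, where the adjusted p-values were 0.207, 0.130 and 0.254, and those of Wwtr1 without YSG males and Tead3 without SG females were 0.0860 and 0.0595. With no library block Yap1 and Wwtr1 had 0.289 and 0.114. Each of these differences, like those against postmitotic cells, pools both genotypes, whose gaps were unlike. In Aqp4-positive against cycling cells Wwtr1 was at 35.2 against 22.1 CPM in SG males and 34.4 against 28.9 CPM in SG females. It was at 31.8 against 7.45 CPM in YSG males and 67.7 against 9.95 CPM in YSG females. For Yap1 the levels were 12.5 against 3.71 CPM in SG males and 10.6 against 0.129 CPM in YSG males. In the Aqp4-positive cells of few granule UMIs, Yap1 was 2.74, Wwtr1 1.57, Tead3 1.98 and Vgll4 0.99 higher than in cycling cells, and Tead1 fell by 0.96, Tead2 by 1.47 and Sav1 by 0.84, each with an edgeR adjusted p of 0.0154 or less. Lats1 and Nf2 passed in neither contrast, with log2 differences from −0.13 to 0.02, although without a filter on low counts Lats1 was 0.34 lower than in cycling cells (edgeR adjusted p = 0.00453) and 0.26 lower than in postmitotic cells (edgeR adjusted p = 0.0447).

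**Figure D4:**
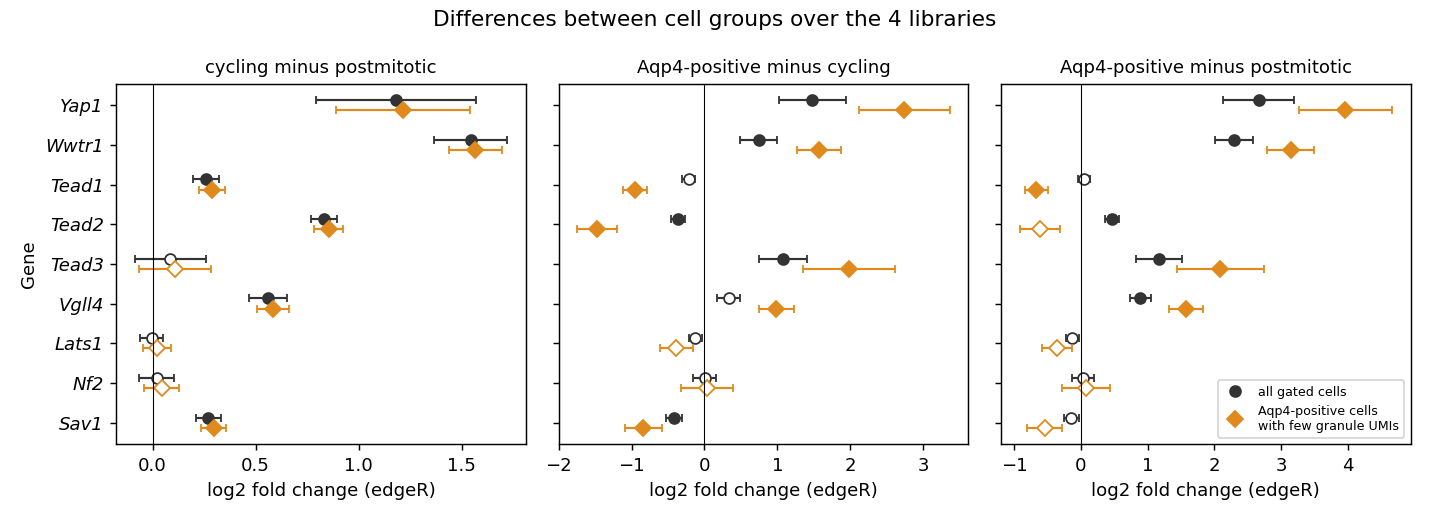
Log2 difference between cell groups from edgeR (x axis) for each tested gene (y axis), with bars of 1 SE; filled symbols have an adjusted p under 0.05, and diamonds use only Aqp4-positive cells with few granule UMIs. Wwtr1 lies to the right of 0 in all 3 panels, and Tead1 and Tead2 in the right panel move below 0 in the diamonds.

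By pattern over cell groups, the genes most like Yap1 were taken from sums of 200000 or more UMIs by Pearson's r of log2(CPM + 1). Over the 9 such sums of the SG libraries and 8540 genes they were Plk2, Kif1c, Prr5l, B2m and Vgll4, with r of 0.98. Over the 17 sums of all libraries and 9621 genes those most like Wwtr1 were Hes1, a target of Notch signalling, and Shroom2 (0.97), and Rhoj, Col4a5 and Dock6 (0.96). Those most like Tead1 were Bahcc1, Tmx1 and Zfp948 (0.96), and Fam98a and Mrrf (0.95). The sums of 1 library share its cells' depth and free RNA, and in the SG set 1 of the 9 was endothelial, so that r rests on few points. In the set of all libraries 1 sum was of leukocytes (YSG females, 44 cells) and 1 was endothelial (SG females). Tead1 was at 70.9 CPM in the leukocyte sum, on 15 UMIs, and at 186 to 267 CPM in all others, so its r rests mostly on that sum. Wwtr1 had 0 UMIs in the leukocyte sum and 294 CPM in the endothelial one.

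Other genes of the Hippo pathway were mostly close between the genotypes, with a few lower in YSG. Of 45 listed genes 36 were measured, which for the lists means 5 CPM or more in any of the 4 libraries. In males 5 of them were lower by 1.5-fold or more (13.9%, where 5.21% of all measured genes were) and 0 were higher, where 5.17% of all were. In females 6 were lower (16.7%, where 6.2% of all were) and 0 higher, where 8.32% of all were. The list medians were −0.07 and −0.16 on the log2 scale, against −0.01 and 0.00 over all measured genes. Wwc2, a relative of the scaffold gene Kibra, was beyond 2-fold in both sexes, at 27.3, 10.6, 30.5 and 9.90 CPM, with log2 ratios of −1.29 and −1.53. Amotl1, whose angiomotin protein binds YAP1, had −1.03 and −0.79, and Lats2, the paralog of Lats1, had −0.63 and −0.60. The core kinase genes Stk3 and Stk4 lay near 0, Stk3 at −0.21 for males and 0.15 for females and Stk4 at −0.09 and −0.12, as did their cofactor genes Mob1a at −0.04 and −0.16 and Mob1b at 0.06 and −0.13.

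**Figure D5:**
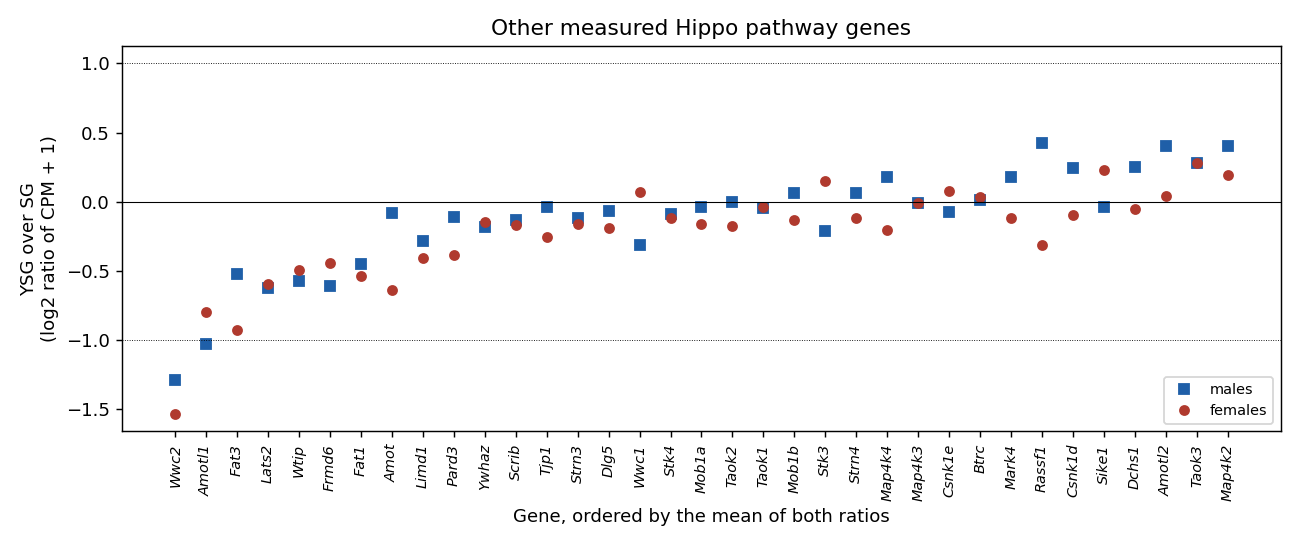
YSG over SG log2 ratio of CPM + 1 for the measured Hippo pathway genes beyond the 10, with 1 of the 36 left out, ordered by the mean of both sexes; blue squares are males, red circles females, and dotted lines mark 2-fold. Wwc2 lies lowest at −1.29 and −1.53, and most genes lie near 0.

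Of 22 listed targets of YAP1 and TAZ, 14 were measured by the rule for the lists, 5 CPM or more in any of the 4 libraries. Arhgef17 counted through YSG females (6.12 CPM) and was at 3.19 CPM in both male libraries. The shares of all measured genes use the rule for each pair, by which Arhgef17 would not count in males. In males 4 were lower by 1.5-fold or more and 1 was higher, and in females 5 were lower and 1 higher. The lower ones were 28.6% and 35.7% of the list, where 5.21% and 6.2% of all measured genes were lower, and the medians were −0.28 and −0.37, against −0.01 and 0.00 over all measured genes. Those lower by 2-fold in both sexes were Ccn1, a matricellular protein gene often used as a readout of YAP1, with log2 ratios of −1.58 and −1.58, Myof, with −1.61 and −1.49, and Rbms3, with −1.09 and −1.07. Foxf2, a forkhead factor gene, was higher in YSG, at 3.50, 19.6, 3.70 and 12.8 CPM. The classical targets Ccn2 and Ankrd1 were under 5 CPM in every library and were not counted. Ccn2 had 17, 5, 62 and 2 UMIs, with YSG over SG folds of 0.353 (0.102 to 0.998) and 0.0480 (0.00569 to 0.181). Ankrd1 had 3, 2, 8 and 3 UMIs, with folds of 0.801 (0.0669 to 6.99) and 0.558 (0.0954 to 2.33). Of the measured genes, Lats2 and Amotl2 stand in both lists. Markers of other cell types differed between the same libraries: fibroblast and mural markers summed to 8.33, 1.86, 4.85 and 1.32 CPM, endothelial markers to 25.3, 15.8, 29.95 and 20.3 CPM and leukocyte markers to 2.79, 15.9, 4.54 and 24.0 CPM over all cells. Their part in the target values was not tested.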

How the data were processed

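Single-cell libraries of 4 mouse tumour groups, 1 library each, were analysed from the deposited matrices. They come from Cell Ranger 5.0.1, per the file headers, and the submitters' processing notes name mm10. The deposited values are counts: whole numbers of UMIs per gene and barcode, not normalized. The number of other value columns left unmapped was 0. Gene positions come from GENCODE M21 on mm10, and promoters from RefSeq on GRCm38.p6.

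Cells were kept by the stated filter, and doublets were kept in the main values. Scrublet in scanpy 1.11.5 marked 0% of cells by its own threshold in 3 libraries and 12.9% in YSG females, so only the removal of cells above the top 6% score mark (4.70% to 5.52%) was tried as an alternative. Cells were gated by UMIs of markers: leukocyte, 2 or more of Ptprc, Tyrobp, Fcer1g and Laptm5; endothelial, 3 or more from at least 2 of Cldn5, Flt1, Pecam1, Cdh5, Esam and Ly6c1; Aqp4-positive, 2 or more of Aqp4; cycling, 4 or more from at least 3 of Mki67, Top2a, Cdk1, Ccnb1, Ccna2, Birc5, Cenpf and Nusap1; postmitotic, 3 or more from at least 2 of Cntn2, Robo3, Rbfox3, Grin2b, Unc5c, Kcna1 and Snap25 with at most 1 cycling UMI. Barcodes in more than 1 of the first 3 gates entered no group. Ratios use a pseudocount of 1 CPM, which understates changes of scarce genes. Cell groups were compared with edgeR 4.0.16 in R 4.3.3 (glmQLFit, glmQLFTest, TMM, filterByExpr), tested on simulated data beforehand, with DESeq2 1.42.0 as an alternative. Genotype and sex were tested in the same way on 4 library sums, which pairs the libraries by sex. Python 3.11.15, numpy 2.4.6, scipy 1.17.1, pandas 2.3.3 and matplotlib 3.10.9 were used. All 10 genes are described. Of the listed pathway and target genes, those measured and beyond 2-fold in the same direction in both sexes are named by rule, and the other listed genes were chosen after their values were seen. The list counts include 1 gene that is not reported here. The genes, lists and gates were chosen with earlier results of these data known. With 1 library per group, a floor of 3 UMIs stands for a count of 0.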

Additional observations from a re-analysis of the deposited data

Results flagged for a closer look

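The male over female fold of Vgll4 went opposite ways in the genotypes. It was 0.880 in SG (0.834 to 0.928) and 1.27 in YSG (1.19 to 1.36), and both counting intervals lay clear of 1. The difference between the folds was not tested, since an interaction of genotype and sex leaves no residual degree of freedom among 4 libraries. The levels behind it were 32.6 and 37.1 CPM in SG males and females and 32.0 and 25.1 CPM in YSG males and females.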

How the results depend on the processing

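Replicate numbers pair no samples, since each group has 1 library; sex paired the libraries in the genotype test, and the library was the block of the cell-group tests. With no replicate block by sex 800 genes were higher and 681 lower in YSG, against 1501 and 1344, and 2 and not 3 of the 10 genes were lower, and with no block by genotype 4 were higher and 2 lower in males, against 7 and 4. Without 1 library, and with no block by sex, 0 to 1945 genes were higher and 0 to 1699 lower in YSG, with 0 to 3 of the 10 genes lower, each lowest without SG females, where 1782 genes had an unadjusted p under 0.05 in edgeR, the tool used for this test. The directions of Wwtr1 and Yap1 between genotypes held under all 8 alternatives to their values over all cells. Their sizes moved: with each cell weighted equally Wwtr1 had −1.58 in females and 3 other Hippo genes were lower by 1.5-fold in males. With a pseudocount of 0.1 CPM Yap1 had −3.82 in males and −4.86 in females. With 5 CPM Yap1 had −0.74 and −0.88, Wwtr1 −1.04 and −1.14, 2 other Hippo genes were lower in males, and the genes beyond 2-fold numbered 72 higher and 128 lower in males and 156 and 142 in females. With a filter at 20 CPM these were 87 and 120 in males and 167 and 136 in females, against 159, 241, 323 and 254 as reported. With gates on thinned cells Wwtr1 had −1.63 in cycling cells of females, and in postmitotic cells −0.57 in males and −1.78 in females. With stricter gates Tead4 in Aqp4-positive cells of females turned from 3.18 to −0.84, on 3 and 2 UMIs as reported. TMM and median-of-ratios scaling shifted all log2 ratios by −0.05 to −0.01.

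In the cell-group tests, using only Aqp4-positive cells with few granule UMIs turned Tead1 to −0.67 and Tead2 to −0.62 against postmitotic cells, and 3153 genes were lower than in cycling cells, against 2024. With no filter 4212 genes were lower than in cycling and 3154 lower than in postmitotic cells, where 23844 and not 13425 genes were tested. Without the library block 1940 genes were higher and 1891 lower in cycling than in postmitotic cells (3739 and 4017 with it), and in Aqp4-positive cells 1094 were lower than in cycling and 1313 lower than in postmitotic cells. With 1 library left out, 1300 to 2286 genes were higher in Aqp4-positive than in cycling cells and 1851 to 2909 higher than in postmitotic cells, each lowest without SG males. The cause was not tested for any of these. The scarce genes Yap1, Tead3 and Tead4 and the groups of few cells are limited by their counts.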
